A study of Mus musculus with 4 samples.

Results

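The clustered protocadherins are a family of cell surface adhesion proteins encoded side by side in alpha, beta and gamma clusters. Members were taken by gene symbol from the deposited tables, which gave 58 of 54838 gene rows, with 14 in the alpha, 22 in the beta and 22 in the gamma cluster. Pcdha11 has a pair of rows, so the 58 rows carry 57 symbols. The cells were Hepa1-6, a line from a mouse liver cancer, sequenced in 2 groups of 2 total RNA libraries each. The shSet libraries are labelled as Setdb1 knockdown by shRNA, and the shNC libraries carry an shRNA named NC and are labelled Setdb1 wild type. Setdb1 is a histone H3 lysine 9 methyltransferase, and its mark is typical of silent chromatin. The study's design text speaks of subclones, the number of clones is not given in the sources used here, and nothing there states that replicates 1 and 2 were separate cultures. The error behind each p-value is therefore that between libraries, and it may be purely technical.

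In the alpha and gamma clusters each gene has its own promoter and a long first exon, called variable, for the extracellular cadherin repeats and the membrane span. That exon is spliced to short exons at the end of the cluster, called constant, which all members of the cluster use and which encode a common cytoplasmic end. Beta genes have no constant exons. Neurons are known to switch on different sets of these promoters cell by cell, which gives each neuron its own surface identity, whereas the C-type genes at the end of the alpha and gamma clusters are used more uniformly. The DNA-binding protein CTCF and cohesin loop the promoters to distant enhancers, DNA methylation silences them, and in mouse neurons Setdb1 is known to maintain the chromatin domain of the array.

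The array spans 911.7 kb of chromosome 18, from 36930184 to 37841873 on the plus strand (GRCm38, GENCODE M21). Alpha genes come first, then beta, then gamma, with Pcdhgc3, Pcdhgc4 and Pcdhgc5 as the last 3 of the 58. All 89 transcripts of the members in the files were found in that annotation. The gamma constant exons add up to 2119 bases. They make up 45.2% of the full-length transcript of Pcdhgc3 (Pcdhgc3-201) and 44.7% of that of Pcdhgc5 (Pcdhgc5-201).

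Libraries held between 19513567 and 19615440 expected counts, and CPM is a gene's count scaled to a library total of 1000000. Setdb1 had 11.0 and 8.59 CPM in shSet, against 51.2 and 59.4 CPM in shNC, so both shSet libraries lay below both shNC libraries (log2 fold change -2.49, SE 0.180, edgeR adjusted p = 1.44e-04). Of 16 hepatocyte and hepatoma markers 14 reached a mean of 1 TPM (a level per length, scaled to the same total), with Apoa1 and Ttr under it, and their summed level was 5255 to 6825 TPM in shSet and 7978 to 8740 TPM in shNC. Fibroblast markers reached 1 TPM in 2 of 8, Dcn and Pdgfra, and summed to 1350 to 1378 TPM in shSet and 1231 to 1344 TPM in shNC. Col1a1, Col1a2, Col3a1, Lum, Pdgfrb and Des stayed under 1 TPM. Endothelial markers reached it in 0 of 6 and summed to 0.45 to 0.90 TPM in shSet and 0.18 to 0.21 TPM in shNC. Leukocyte markers reached it in 2 of 7, Cd68 and Csf1r, and summed to 15.5 to 17.0 TPM in shSet and 9.62 to 10.6 TPM in shNC. Of the 7, 2 were at 0, among them the T cell marker Cd3e. The part of these differences in the results was not tested, and in bulk RNA fewer cells with a transcript and less of it per cell cannot be told apart.

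The gamma C-type genes were given nearly all of the expected counts of the clustered protocadherins, and the alpha cluster had next to none at this depth. Gamma members gave 95.3% and 95.4% of the members' summed count in shSet, and 94.2% and 93.3% in shNC. Within the gamma cluster the 3 C-type genes took between 99.5% and 99.8% of the count in every library. Reads of the constant exons were divided among the gamma members by estimation, so this share depends on that division. Beta genes were detected broadly but at low levels, and 13 of 14 alpha rows were listed at 0 in all libraries. In all, 23 members had no count, 27 had too few to be tested (22 summed counts or fewer) and 8 were tested (39 or more).

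**Figure D1:**
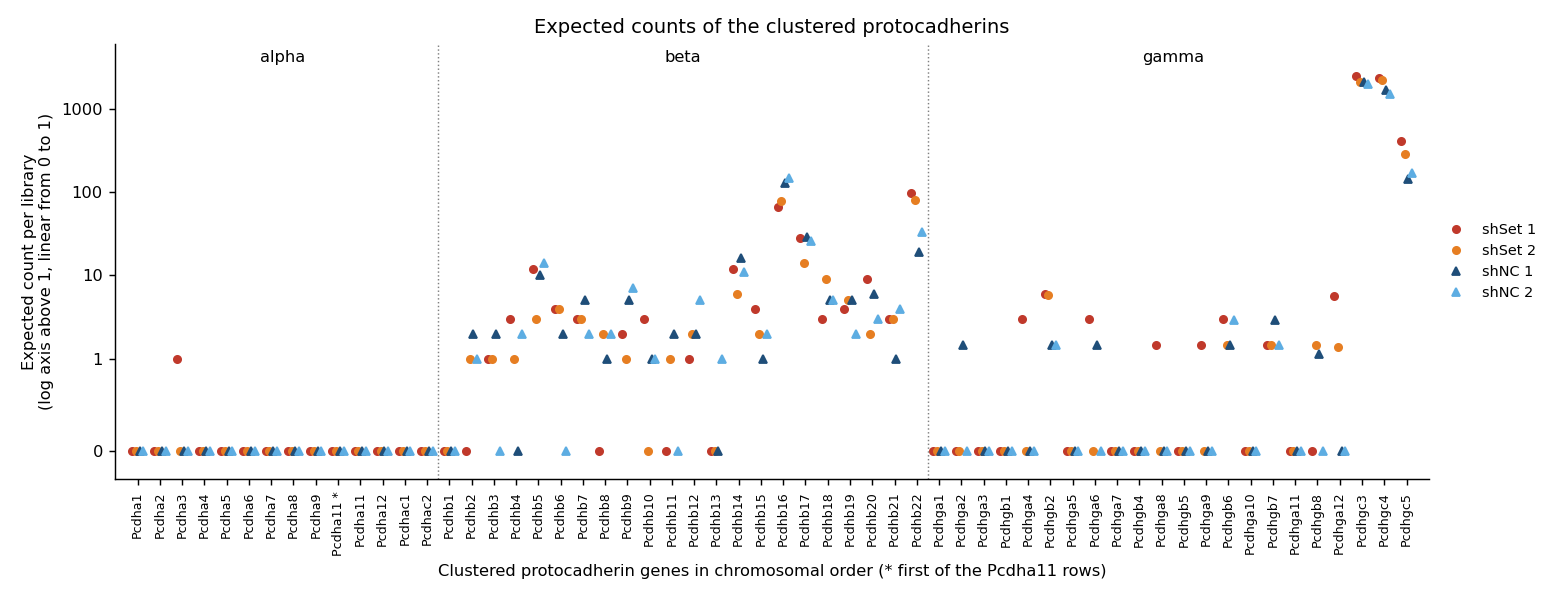
Expected count of each of the 58 clustered protocadherin rows in each library (y axis, log above 1), in chromosomal order (x axis); circles are the shSet libraries and triangles the shNC libraries. Alpha members lie at 0 except for 1 count of Pcdha3, beta members spread up to 146 counts, and the 3 gamma C-type genes lie between 144.72 and 2445.76.

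Among the 8 tested members 2 were higher in shSet, Pcdhb22 and Pcdhgc5, 0 were lower and 6 did not pass (edgeR quasi-likelihood F-test, adjusted p under 0.05 over 12821 genes). Of all tested genes 5.71% were called, 4.03% as higher and 1.68% as lower. At an unadjusted p under 0.05 the members counted 3 higher and 1 lower, against 21.1% of all tested genes in either direction. DESeq2 called 3 members higher and 0 lower, and 6.99% of all genes (4.53% higher, 2.46% lower). On log2(TPM + 1) limma called 1 member higher and 0 lower, and 2.61% of all genes (1.91% higher, 0.694% lower). With edgeR's other settings, 2 members were called with DESeq2's size factors (5.68% of all genes), 2 with at least 1 CPM in 2 libraries (5.59%), 3 with position-named loci in the fit (5.62%), 2 with the replicate number as a block (6.30%) and 4 with the numbers crossed (17.5%). Without a low-count filter 0 were called (0.497% of all genes). Leaving out 1 library gave 2 members without shSet 1 (8.18% of all genes), 2 without shSet 2 (5.64%), 4 without shNC 1 (12.4%) and 2 without shNC 2 (6.78%). The median log2 fold change was -0.12 over the 8 tested members and -0.01 over all tested genes. In 4 of the 8 the shSet and shNC libraries did not overlap, which held for 51.9% of all tested genes.

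The C-type gene Pcdhgc5, known in rat brain from inhibitory synapses, was higher in shSet. It had 20.7 and 14.8 CPM in shSet, against 7.38 and 8.73 CPM in shNC. Both shSet libraries lay above both shNC libraries, although the shSet pair was also spread more widely. Its log2 fold change was 1.16 (SE 0.222, 95% interval 0.66 to 1.65, edgeR adjusted p = 0.0164), which is 2.23-fold. Per length its level was 5.99 and 4.36 TPM in shSet and 1.97 and 2.39 TPM in shNC. It did not pass on log2(TPM + 1) in limma (adjusted p = 0.0732) or without a filter on low counts (edgeR adjusted p = 0.126). With 1 library left out its log2 fold change lay between 0.898 and 1.38, lowest without shSet 1.

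Pcdhgc3, whose protein is known to bind Axin1 of the Wnt pathway, had the highest count summed over the 4 libraries, with Pcdhgc4 above it in shSet 2, and did not pass the test. It had 125 and 106 CPM in shSet, against 108 and 103 CPM in shNC. The groups overlapped, with shSet 2 just below shNC 1. The log2 fold change was 0.14 with a 95% interval from -0.17 to 0.46 (edgeR adjusted p = 0.611), so this interval leaves out a rise of more than 1.38-fold and a fall below 0.888 of the shNC level. In TPM it had 35.0 and 29.9 in shSet and 31.4 and 30.2 in shNC.

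Pcdhgc4, which mice need for the survival of inhibitory interneurons, fell just short of the threshold. It had 119 and 114 CPM in shSet, against 85.1 and 77.6 CPM in shNC. Each shSet library lay above each shNC library. The log2 fold change was 0.54 (SE 0.135, 95% interval 0.23 to 0.84, edgeR adjusted p = 0.0506). It passed in DESeq2 (adjusted p = 0.0190) and with position-named loci in the same fit (edgeR adjusted p = 0.0487). On log2(TPM + 1) it did not pass (limma adjusted p = 0.102). With 1 library left out its log2 fold change lay between 0.457 and 0.621.

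The value of Pcdhgc4 rests almost entirely on constant exon sequence. It sums 3 annotated transcripts, of 5024 bases (Pcdhgc4-201, full length), 3100 bases (a retained intron) and 2272 bases (Pcdhgc4-203). The shortest has 153 bases of its own, and the other 2119 bases (93.3%) are the shared constant exons. The files give a mean length weighted by transcript abundance, which was 2301 and 2301 bases in shSet and 2304 and 2292 bases in shNC, next to the shortest transcript. By these lengths at least 96.2% of the gene's transcripts were assigned to Pcdhgc4-203 in every library. The other transcripts together had at most 2.52 and 2.43 TPM in shSet and 2.02 and 1.16 TPM in shNC, out of 71.8 and 69.0 TPM in shSet and 52.5 and 48.7 TPM in shNC for the whole gene. How reads of constant exons were divided among members bears on the level of each gamma gene but not on the gamma sum. Reads given to rows outside the members would bear on that sum. Gm38182, on the plus strand from 37823879 to 37840382, had 7.78 and 1.46 counts in shSet and 4.78 and 3.18 counts in shNC, all fractional. Whether its reads were shared with gamma members was not tested.

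For Pcdhgc5 the mean transcript length was shorter in both shSet libraries than in both shNC libraries, without a test. Mean length for Pcdhgc5 was 4506 and 4436 bases in shSet and 4991 and 4925 bases in shNC. Its full-length transcript has 4741 bases, so the shSet values need a part of the short transcripts of 444 or 593 bases, and the shNC values a part of the retained-intron transcript of 5777 bases. For Pcdhgc3 the mean lay between 4597 and 4625 bases in all 4 libraries, near its full-length 4687 bases. All counts of the C-type genes were fractional, so reads were divided among features in every library.

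**Figure D2:**
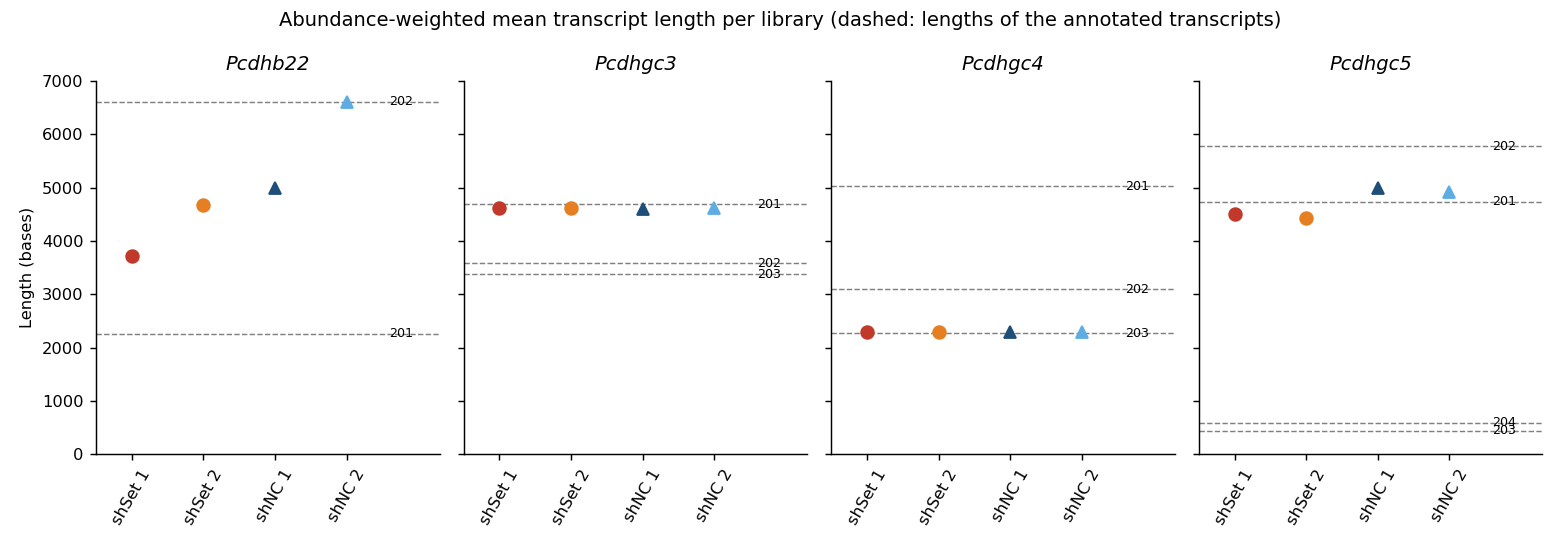
Mean transcript length (bases, y axis) weighted by estimated abundance for Pcdhb22, Pcdhgc3, Pcdhgc4 and Pcdhgc5 in each library (x axis); dashed lines are the annotated transcripts. Pcdhgc4 sits near its transcript of 2272 bases, and the Pcdhgc5 points are at 4506 and 4436 bases in shSet and 4991 and 4925 bases in shNC.

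Summed over the gamma cluster, shSet had 266 and 236 CPM, against 201 and 189 CPM in shNC. The means were 251 ± 21.3 CPM in shSet and 195 ± 8.03 CPM in shNC (SD, n = 2 each), a log2 ratio of 0.36, and the libraries of the groups did not overlap. No p is given for a sum over members, since 2 against 2 libraries cannot go below an exact permutation p of 0.33. Without Pcdhgc4 the other C-type genes summed to 145 and 121 CPM in shSet and 115 and 112 CPM in shNC. The share of Pcdhgc5 in the gamma count was 7.79% and 6.27% in shSet and 3.68% and 4.61% in shNC, and that of Pcdhgc3 was 46.9% and 44.9% in shSet and 53.7% and 54.3% in shNC.

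The 19 gamma A and B genes, the alternate genes that neurons choose among, had few counts. Of these 9 were listed at 0 in all libraries, and the other 10 summed to 25.0 and 11.6 counts in shSet and 9.94 and 5.83 counts in shNC. Pcdhgb2 had the most, with 6.00 and 5.83 counts in shSet and 1.48 and 1.46 counts in shNC. Pcdhgb6 had 2.98 and 1.45 counts in shSet and 1.47 and 2.92 counts in shNC, and Pcdhgb7 had 1.48 and 1.45 counts in shSet and 2.93 and 1.45 counts in shNC. Pcdhga12, named after its values were seen, had 5.62 and 1.37 counts in shSet and 0 counts in both shNC libraries. None of the 19 was tested, and counts this low cannot show a difference for single genes.

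In the beta cluster the summed count overlapped between the groups, and 1 of its 5 tested members, Pcdhb22, was called. The summed count was 255 and 220 in shSet, against 242 and 267 in shNC. The means were 12.1 ± 1.24 CPM in shSet and 13.0 ± 0.945 CPM in shNC (SD, n = 2 each), a log2 ratio of -0.10. All 73 beta values above 0 were whole numbers within 0.005, whereas 2.94% of the 34 gamma values above 0 were whole.

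Pcdhb22, the last gene of the beta cluster (37517871 to 37524479), was the member with the largest fold change among the 8 tested. It had 97 and 81 counts in shSet, against 19 and 33 counts in shNC. Both shSet libraries exceeded both shNC libraries. The CPM means were 4.54 ± 0.570 in shSet and 1.33 ± 0.510 in shNC (SD, n = 2 each), a log2 fold change of 1.78 (SE 0.328, 95% interval 1.04 to 2.52, edgeR adjusted p = 0.0137) or 3.44-fold. It passed on log2(TPM + 1) (limma adjusted p = 0.0456), but not without a filter on low counts (edgeR adjusted p = 0.105). With any single library left out its log2 fold change lay between 1.45 and 2.22. Its first 455 bases overlap the end of Pcdhb21, which had 3 and 3 counts in shSet and 1 and 4 counts in shNC.

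Pcdhb22 has an unspliced transcript of 6609 bases and a spliced one of 2266 bases (Pcdhb22-201). From the mean lengths the spliced transcript made up 66.4% and 44.6% of the gene's transcripts in shSet, against 37.3% and 0% in shNC. In TPM the spliced transcript had 1.16 and 0.513 in shSet and 0.0969 and 0 in shNC. The unspliced transcript had 0.587 and 0.637 TPM in shSet and 0.163 and 0.340 TPM in shNC. Values of both transcripts were higher in each shSet library than in each shNC library, at 19 to 97 counts per library for the whole gene and without a test.

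Pcdhb16, 34.8 kb upstream of Pcdhb22, led the beta cluster in shNC cells. It had 66 and 79 counts in shSet, against 128 and 146 counts in shNC, so both shSet libraries lay below both shNC libraries. The log2 fold change was -0.90 (SE 0.238, 95% interval -1.44 to -0.37, edgeR adjusted p = 0.0599), which did not pass. With 1 library left out its log2 fold change lay between -1.045 and -0.776. Pcdhb16 took 25.9% and 35.9% of the beta count in shSet and 52.9% and 54.7% in shNC. Pcdhb22 took 38.0% and 36.8% in shSet and 7.85% and 12.4% in shNC.

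**Figure D3:**
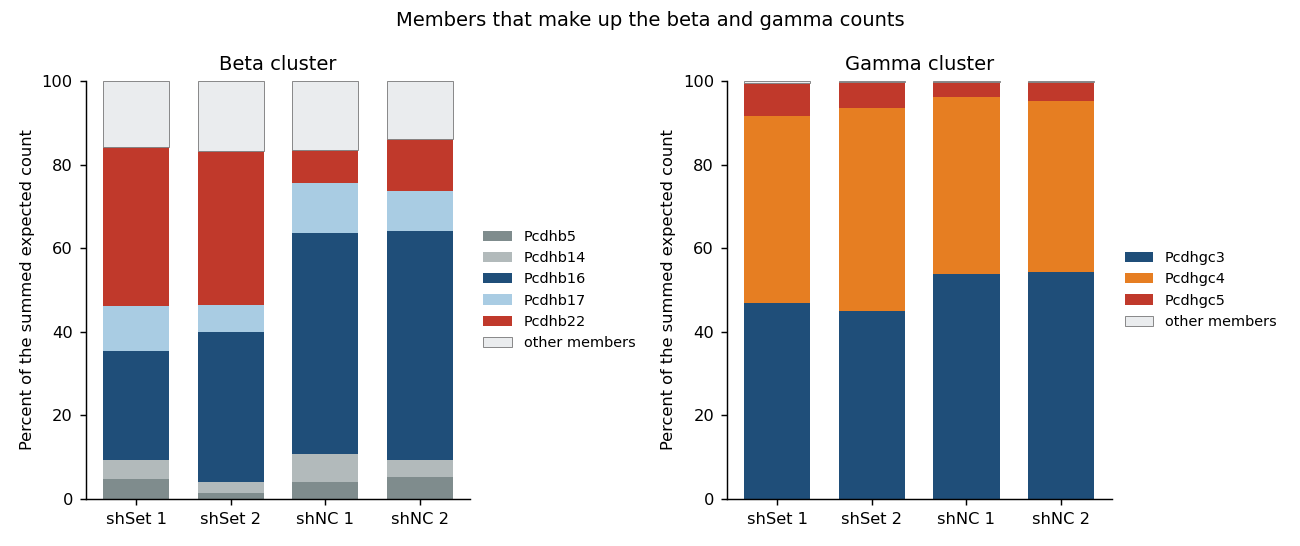
Percent of the summed expected count of the beta (left) and gamma (right) clusters held by each tested member in each library, with untested members pooled as other members. Pcdhb22 fills 38.0% and 36.8% of the beta bars in shSet and 7.85% and 12.4% in shNC, and Pcdhgc3 and Pcdhgc4 fill most of every gamma bar.

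The other 3 tested beta genes did not pass. Pcdhb17 had 28 and 14 counts in shSet and 29 and 26 counts in shNC (log2 fold change -0.38, edgeR adjusted p = 0.661). Pcdhb5 had 12 and 3 counts in shSet and 10 and 14 counts in shNC (log2 fold change -0.66, edgeR adjusted p = 0.604). Pcdhb14 had 12 and 6 counts in shSet and 16 and 11 counts in shNC (log2 fold change -0.57, edgeR adjusted p = 0.589). In all 3 the groups overlapped, the lowest value was that of shSet 2, and the 95% interval of the log2 fold change included 0.

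**Figure D4:**
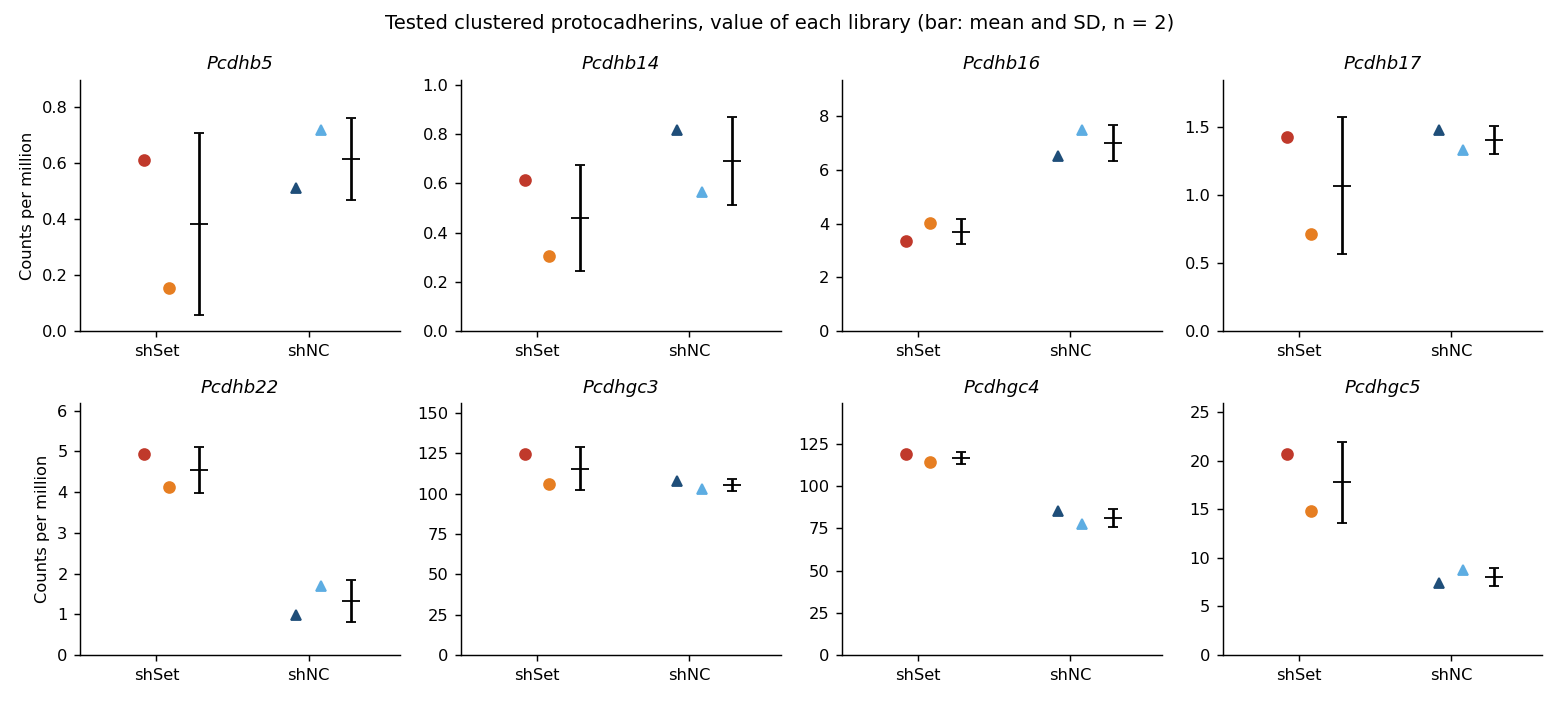
CPM (y axis, from 0) of the 8 tested members in the shSet (circles) and shNC (triangles) libraries, with the mean and SD of each pair as a bar. The groups are apart for Pcdhb16, Pcdhb22, Pcdhgc4 and Pcdhgc5 and overlap for Pcdhb5, Pcdhb14, Pcdhb17 and Pcdhgc3.

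The remaining 17 beta genes summed to 40 and 37 counts in shSet and to 40 and 37 counts in shNC. Of these, 16 had a count in at least 1 library, and Pcdhb1, at the start of the cluster, had none. Pcdhb18 had 3 and 9 counts in shSet and 5 and 5 counts in shNC, Pcdhb20 had 9 and 2 in shSet and 6 and 3 in shNC, and Pcdhb19 had 4 and 5 in shSet and 5 and 2 in shNC. These genes lie between Pcdhb17 and Pcdhb22, and their values overlapped between the groups.

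In the alpha cluster the whole evidence was 1 count of Pcdha3 in shSet 1. The alternate genes and both C-type genes of this cluster, Pcdhac1 and Pcdhac2, were otherwise listed at 0. A count of 0 allows up to 3 counts per library, or 0.153 CPM in shSet 2 and 0.154 CPM in shNC 2, for counting error only. For the cluster in shSet 1, with its 1 count, the limit is higher. At this depth a fall of the alpha genes could not be seen. A rise in shSet would have been seen only if it went beyond these limits.

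Genes around the array gave a local comparison. Of 21 listed neighbours 18 were tested. Of these 0 were higher, 1 was lower and 17 did not pass, beside 5.71% called over all tested genes. Their median log2 fold change was -0.09, with a range from -0.76 to 0.44. At an unadjusted p under 0.05 there were 0 higher and 2 lower, beside 21.1% of all tested genes in either direction. DESeq2 called 0 higher and 1 lower, and limma called 0. The nearest listed gene before the array, the zinc finger gene Zmat2, had 51.5 and 59.0 CPM in shSet and 54.7 and 61.4 CPM in shNC. The nearest one after it, the formin Diaph1, had 94.3 and 86.7 CPM in shSet and 96.1 and 78.3 CPM in shNC. Taf7, a subunit of the general transcription factor TFIID that lies between the beta and gamma clusters, had 4.49 and 5.62 CPM in shSet and 5.10 and 4.46 CPM in shNC. Its neighbour Slc25a2 was not tested, with 1 and 2 counts in shSet and 0 and 2 counts in shNC. Zmat2, Diaph1 and Taf7 did not pass, and the groups overlapped in each.

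The called neighbour was Arap3, a GTPase-activating protein downstream of phosphoinositide signals. It had 50.8 and 40.5 CPM in shSet, against 66.8 and 89.2 CPM in shNC (log2 fold change -0.76, SE 0.176, edgeR adjusted p = 0.0374). Leaving out shSet 2 gave a log2 fold change of -0.60 and leaving out shNC 2 one of -0.55. On log2(TPM + 1) Arap3 did not pass (limma adjusted p = 0.122).

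**Figure D5:**
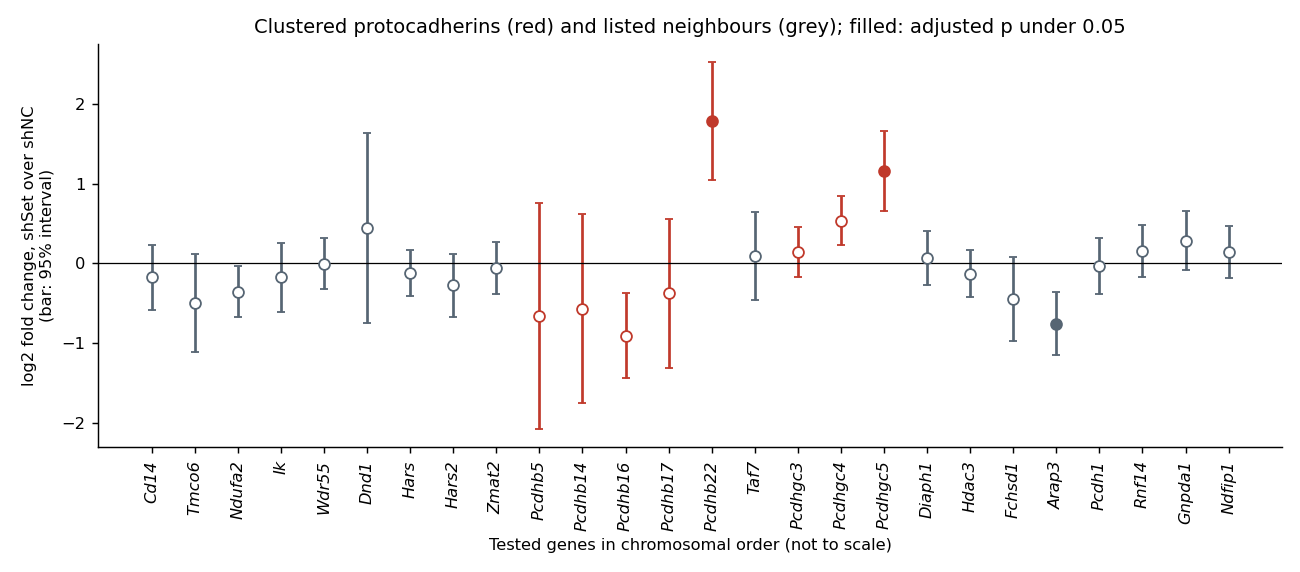
Log2 fold change of shSet over shNC (y axis, with 95% intervals) for the tested clustered protocadherins (red) and the tested listed neighbours (grey), in chromosomal order and not to scale; filled points passed the test. Pcdhb22 at 1.78 and Pcdhgc5 at 1.16 lie above 0, and Arap3 at -0.76 lies below.

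The 25 listed regulators include general chromatin factors, and a role at this array is not shown here for each. All 25 were tested, and 2 were higher, 0 lower and 23 did not pass, beside 5.71% called over all tested genes. Their median log2 fold change was -0.12. At an unadjusted p under 0.05 there were 2 higher and 3 lower, beside 21.1% of all tested genes in either direction. DESeq2 called 2 higher and 0 lower. The 3 lower were cohesin genes, Nipbl (log2 fold change -0.64), Smc3 (-0.49) and Wapl (-0.44), with edgeR adjusted p of 0.196, 0.216 and 0.0950. Other cohesin genes did not reach that level, with Smc1a at -0.50, Pds5b at -0.25, Pds5a at -0.14, Rad21 at -0.12, Stag2 at -0.02 and Stag1 at 0.05. The next 3 regulators were picked after their values were seen, for their known roles at the array. Ctcf, which binds the promoters and enhancers of the array, had 76.9 and 75.4 CPM in shSet and 88.8 and 72.2 CPM in shNC (log2 fold change -0.07, 95% interval -0.40 to 0.27). Smchd1, a silencing protein known to bind this array in mouse cells, had 94.7 and 95.3 CPM in shSet and 91.2 and 114 CPM in shNC. The maintenance DNA methyltransferase Dnmt1 had 162 and 90.7 CPM in shSet and 160 and 169 CPM in shNC, so shSet 2 stood below the other 3 libraries. The regulators called were the methyl-CpG binding protein Mbd1 (log2 fold change 1.80, edgeR adjusted p = 3.52e-04) and the Setdb1 cofactor Atf7ip (1.09, edgeR adjusted p = 0.00631).

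Other adhesion genes and partners were set beside the members. Of 25 non-clustered protocadherins and large cadherins only 5 were tested. Of these 2 were higher and 0 lower, beside 5.71% called over all tested genes. The median log2 fold change of 1.44 was the value of Fat2, which did not pass (edgeR adjusted p = 0.141). Fat2 had 31 and 26 counts in shSet and 16 and 5 counts in shNC. The other uncalled genes were Pcdh1 (log2 fold change -0.03) and Fat1 (-0.46). At an unadjusted p under 0.05 there were 3 higher and 1 lower, beside 21.1% of all tested genes. DESeq2 called 2 higher and limma 1 higher. The genes called by edgeR were the brush border protocadherin Cdhr2 and the planar polarity cadherin Celsr1. Cdhr2 had 58.2 and 45.9 CPM in shSet and 10.9 and 13.6 CPM in shNC (log2 fold change 2.10, edgeR adjusted p = 3.52e-04). Celsr1 had 4.08 and 3.58 CPM in shSet and 1.33 and 1.43 CPM in shNC (log2 fold change 1.48, edgeR adjusted p = 0.0189). Without shSet 1 the adjusted p of Celsr1 was 0.0528. Of 12 classical cadherins and catenins 5 were tested (median log2 fold change -0.11), and edgeR called 0, with 0 higher and 1 lower at an unadjusted p under 0.05, whereas DESeq2 called 1 lower and limma 0. For partners and proteases of clustered protocadherins 20 of 22 were tested (median log2 fold change 0.05), and edgeR, DESeq2 and limma called 0, with 3 higher at an unadjusted p under 0.05. Only 3 of 20 neuronal genes had enough counts to test (median log2 fold change 0.06), and edgeR, DESeq2 and limma called 0 of them, with 0 at an unadjusted p under 0.05.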

How the data were processed

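Per the labels' protocols, RNA was extracted with RNeasy Plus Mini and libraries were made with NEBNext Ultra Directional. The submitters' processing notes name STAR, RSEM, FastQC, DESeq2, GRCm38 and mm10 without roles, and no source used here gives the strand setting or annotation release. The deposited expected counts are RSEM estimates per the file headers, in which shared reads are divided among genes. The deposited TPM values are scaled per length. Mean lengths are the deposited ones.

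In R 4.3.3, expected counts were rounded for edgeR 4.0.16 (quasi-likelihood F-test, TMM, filterByExpr, group only, 12821 genes, Benjamini-Hochberg at 0.05). CPM used the total over all rows, and 95% intervals came from the F statistic. DESeq2 1.42.0, limma 3.58.1 on log2(TPM + 1), other filters and scalings, a replicate block and leaving out each library were tried. Members, lists and the naming rule (Setdb1, tested members, the 3 untested members with most counts in each cluster, up to 4 called genes of each list, the nearest neighbours, Taf7, Slc25a2, and loci with at least 10 summed counts) were chosen with earlier results of these data known.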

Additional observations from a re-analysis of the deposited data

How the results depend on the processing

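The members called numbered 2 with DESeq2's size factors, a filter of 1 CPM in 2 libraries and the replicate block, against 0 without a low-count filter, 1 in limma on log2(TPM + 1), 3 in DESeq2 or with loci in the fit, and 2 to 4 with a library left out (4 without shNC 1). Over all genes the calls were 732, against 107 without a filter, 334 in limma, 808 with the replicate block, and 723 to 1594 with a library left out (1594 without shNC 1). The replicate numbers share only a number, and deviations of same-numbered libraries correlated at -0.183. Crossing the pairs, added after seeing the data, called 4 of 8 tested members and 2249 genes (17.5% of all tested). It also called 7 of 25 tested regulators, 4 of 5 large cadherins, 1 of 5 classical cadherins or catenins and 2 of 20 partners. Regulators called were 2, against 1 without a filter or in limma. Large cadherins called were 2, against 1 without a filter or in limma. Classical cadherins called were 0, against 1 in DESeq2, and partners called were 0 apart from the crossed pairs. Neighbours called were 1, against 0 without a filter or in limma. For fits with a library left out only log2 fold changes are given, since 1 group then holds 1 library.

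The block changed no call among the tested members. Leaving out the most abundant member, Pcdhb16, gave a log2 ratio of 0.49 for the beta sum (against -0.10). With Pcdhb22 left out as well, the beta ratio was -0.27. Leaving out Pcdhgc3 gave 0.59 for the gamma sum (against 0.36) and 0.52 for all members (against 0.34). The alpha sum has no ratio, since shNC had no count. With a library left out, log2 fold changes of uncalled genes changed sign, in Pcdhb5 (-1.94 to 0.0075, above 0 without shSet 2), Pcdhb17 (-0.95 to 0.0318, above 0 without shSet 2), Zmat2 (-0.16 to 0.0402, above 0 without shSet 1 or shNC 2), Diaph1 (-0.0884 to 0.24, below 0 without shNC 2) and Taf7 (-0.0817 to 0.25, below 0 without shSet 2 or shNC 2). The cause was not tested. Depth limits all alpha and most beta and gamma members.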

Other observations

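Besides the members, the array holds 27 other annotated genes in the files, of which 7 had a count in any library and 20 were listed at 0. BC037039, an RNA annotated antisense to Pcdhgc3 and named after its values were seen, had 20.3 and 50.5 counts in shSet and 28.5 and 22.2 counts in shNC, all fractional, so the groups overlapped (edgeR adjusted p = 0.588). Whether its reads and those of Pcdhgc3 were kept apart by strand is not given in the sources used here.

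Of 39 position-named loci inside the array 6 had a count. The locus chr18:36982894-36985578 on the minus strand of the alpha cluster had 21.4 and 14.5 counts in shSet and 14.2 and 20.8 counts in shNC. The nearby locus chr18:36986321-36988177 had 3.71 and 3.04 counts in shSet and 4.70 and 2.18 counts in shNC. In the beta cluster, chr18:37367262-37369943 on the plus strand had 17.8 and 17.7 counts in shSet and 15.1 and 14.1 counts in shNC (GRCm38). The values of the first pair of loci overlapped between the groups. Those of the beta locus did not, as held for 51.9% of all tested genes in CPM. No test result is given for these loci.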
